A study of Arabidopsis thaliana with 12 samples.

Results

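Transcripts of 6 nuclear genes for organelle RNA and gene expression were followed by array in Arabidopsis thaliana (ecotype Columbia 0, total RNA). Their probes were 6 of the 692 annotated with a single gene, out of 3439 probes in all. They were selected by probe number from earlier results of the same data, in which several of them had been named for a difference between toc132 and wild type (WT), so their differences are given as a description without a test. The probes are 249 for AT5G39980, 4186 for AT5G15280, 3678 for AT2G30100, 800 for AT5G55580, 3618 for AT3G56330 and 1643 for AT2G37510. The study compared 6 WT samples with 6 samples of the toc132 mutant, whose protein import over the outer chloroplast envelope is impaired. The toc132 allele, the organ, the age, the growth conditions and any treatment are not named in the labels. Of 9 marker genes of leaf, root and seed looked for, 0 had a probe of their own, so the organ could not be checked. Whether the samples are separate plants is not labelled, so the spread between them, and any p drawn from it, may be technical.

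Plastids and mitochondria keep small genomes, and the proteins that process, edit, stabilise and translate their RNA are mostly made in the cytosol from nuclear genes and then imported. Pentatricopeptide repeat (PPR) proteins bind organelle RNA in a sequence-specific way and guide its cleavage, splicing, editing or translation. Proteins of the mTERF family act on organelle transcription and RNA maturation, and tRNA methyltransferases modify the bases of tRNA. TOC132 is one of the receptors for preproteins in the outer envelope of the chloroplast.

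Levels are the intensities deposited by the authors, in arbitrary units from 0 to 100, and differences are on the log2 scale after quantile normalisation over all probes. Summed over probes, the samples held 3536 to 3857 units, and the number of arrays limits the precision. Samples with consecutive numbers were close to each other, which shows in the values while no label states it. Across 2907 complete probes, Pearson's r was at least 0.901 between the samples numbered 1 and 2, 3 and 4, or 5 and 6 of a group. Between such sets it was 0.533 to 0.723 in WT and 0.806 to 0.894 in toc132. The members are therefore described by these 3 sets of numbers as well as by group. Fewer cells of a type and less RNA per cell cannot be told apart in such samples.

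Of the 6 genes, 5 had a higher mean in toc132 and 1, AT2G37510, a lower one. All 5 higher genes and the lower gene were past 2-fold. Over the 3190 probes tested, 9.72% were at least 2-fold higher in toc132 and 6.49% at least 2-fold lower. The median log2 difference was 1.80 over the 6 genes and -0.06 over all probes. These shares are given for scale only, because the genes were chosen with the differences known.

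The PPR gene AT5G39980 stepped down from set to set in WT and less so in toc132. Its intensity in WT was 2.95, 2.90, 1.41, 1.14, 0.614 and 0.583 for the numbers 1 to 6, and in toc132 it was 4.02, 3.94, 3.96, 3.84, 2.57 and 2.86. The WT samples 3 to 6 lay below every toc132 sample, whereas WT 1 and 2 lay above toc132 5 and 6, so the groups overlapped. The mean log2 intensity was 1.89 ± 0.39 (SD, n = 6) in toc132 and 0.35 ± 1.02 (SD, n = 6) in WT, a 2.91-fold level. Its level was higher in toc132 for each of the 6 numbers. In WT it was 2.89 times as high in samples 1 and 2 as in 3 and 4, and 4.67 times as high as in 5 and 6.

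The second PPR gene, AT5G15280, had the widest range of WT set means among the 6 genes. Its intensity was 1.51, 1.30, 0.746, 0.741, 0.0970 and 0.0578 in WT samples 1 to 6. In toc132 samples 1 to 6 it was 2.14, 2.12, 1.73, 1.46, 1.15 and 1.18. WT 1 and 2 lay within the range of the toc132 samples, WT 3 and 4 below it, and WT 5 and 6 far below it. The mean log2 intensity was 0.73 ± 0.38 (SD, n = 6) in toc132 and -1.17 ± 1.89 (SD, n = 6) in WT, or 3.74-fold. The WT level of the samples 1 and 2 was 2.69 times that of 3 and 4 and 17.5 times that of 5 and 6. In this the gene resembled AT5G39980, which also stood at an intermediate level in WT 3 and 4. For AT5G15280 the close samples WT 5 and WT 6 differed by 0.68 (log2), against a median of 0.21 for that pair over all complete probes. Its low level there is thus known less precisely. With an offset of 0.1 before log2 the group difference of AT5G15280 was 1.52 (log2), against 1.9 without it.

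AT2G30100, described as containing PPR motifs, had the largest difference of the 6. Its intensity in WT samples 1 to 6 was 1.58, 1.56, 0.136, 0.196, 0.0604 and 0.197. In toc132 samples 1 to 6 it was 2.15, 2.32, 1.29, 1.48, 1.24 and 1.45. WT samples 3 to 6 were all far below the toc132 samples, and WT 1 and 2 lay between toc132 3 to 6 and toc132 1 and 2. The mean log2 intensity was 0.76 ± 0.36 (SD, n = 6) in toc132 and -1.62 ± 1.96 (SD, n = 6) in WT, or 5.21-fold. In WT it was 11.5 times as high in samples 1 and 2 as in 3 and 4, and 13.7 times as high as in 5 and 6. The close samples WT 5 and WT 6 differed by 1.61 (log2) for this gene, against a median of 0.21 for that pair over all complete probes, so its low WT level is known less precisely.

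The mTERF gene AT5G55580, listed as mTERF9 in the RefSeq gene table, parted the WT samples into 2 high and 4 low ones. Its intensity was 0.887 and 0.818 in WT 1 and 2, and 0.187, 0.210, 0.192 and 0.220 in WT 3 to 6. In toc132 samples 1 to 6 it was 1.22, 1.17, 0.849, 0.883, 1.47 and 1.41. WT 3 to 6 lay close together and below all other samples, and WT 1 and 2 were near the lowest toc132 samples. The mean log2 intensity was 0.19 ± 0.31 (SD, n = 6) in toc132 and -1.52 ± 1.20 (SD, n = 6) in WT, or 3.26-fold. After normalisation its level was higher in toc132 for 4 of the 6 numbers, the exceptions being 1 and 2, where it was higher in the deposited values alone. In toc132 its highest set was 5 and 6, at a mean of 0.59 (log2) against 0.00 and -0.02 in the sets 1 and 2 and 3 and 4. That set was the lowest of the toc132 sets for the other 4 higher genes, though for AT3G56330 only just (-0.63 against -0.59 in samples 3 and 4).

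AT3G56330, described as a tRNA methyltransferase, had a dim probe in WT 3 to 6. Its intensity was 0.523 and 0.614 in WT 1 and 2, and 0.0529, 0.107, 0.171 and 0.0492 in WT 3 to 6. In toc132 samples 1 to 6 it was 1.02, 1.06, 0.615, 0.542, 0.623 and 0.585. WT 3 to 6 lay below all toc132 samples, and WT 1 and 2 were near toc132 3 to 6. The mean log2 intensity was -0.49 ± 0.20 (SD, n = 6) in toc132 and -2.50 ± 1.65 (SD, n = 6) in WT, or 4.03-fold. Within pairs of close WT samples it differed by 0.95 (log2) between 3 and 4 and by 1.70 between 5 and 6.

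AT2G37510, described as RNA-binding, ran the other way. Its intensity in WT samples 1 to 6 was 4.75, 4.60, 6.19, 6.57, 9.04 and 9.53. In toc132 samples 1 to 6 it was 3.10, 3.07, 4.36, 4.58, 1.97 and 2.13. Every WT sample was above every toc132 sample, so the groups did not overlap, though WT 2 at 4.60 and toc132 4 at 4.58 nearly met. Groups without overlap and lower in toc132 were seen for 1.72% of the probes tested, and higher in toc132 for 1.16%. The mean log2 intensity was 1.65 ± 0.49 (SD, n = 6) in toc132 and 2.73 ± 0.40 (SD, n = 6) in WT, or 0.474-fold. It was the only 1 of the 6 genes whose groups did not overlap.

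**Figure D1:**
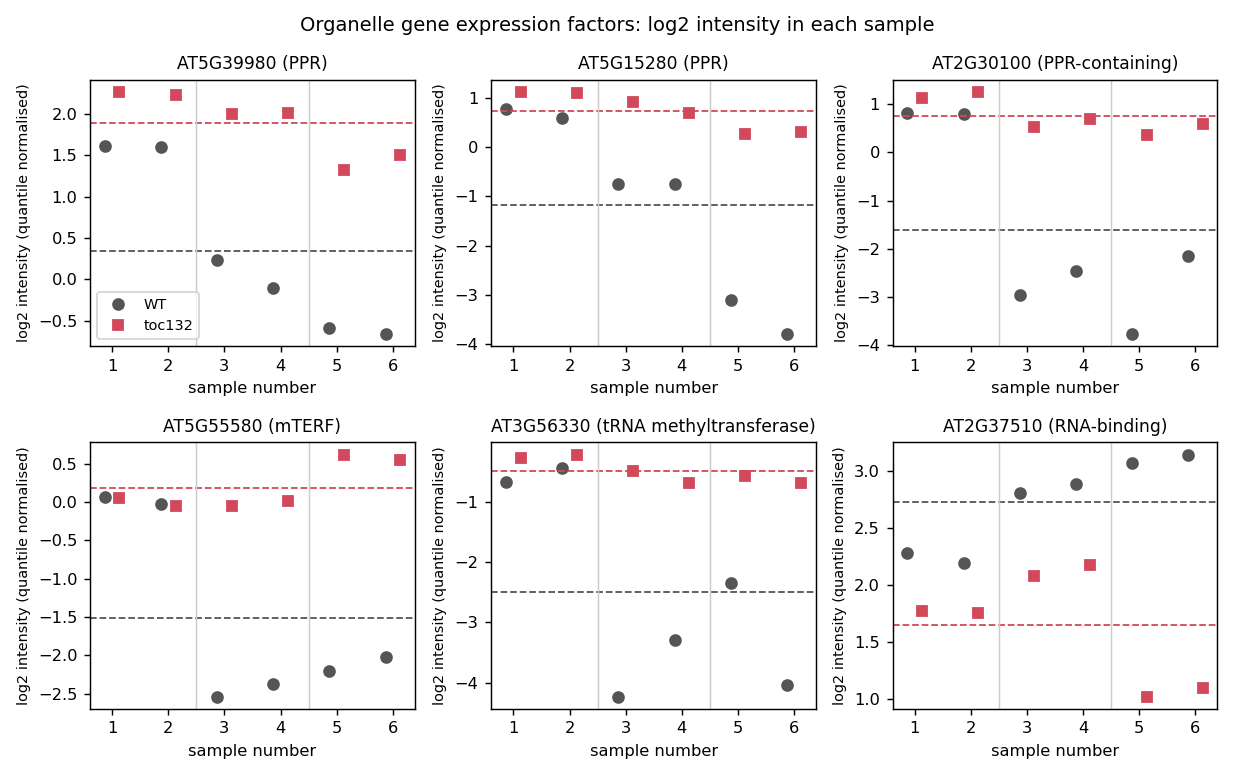
Log2 intensity after quantile normalisation (vertical axis) against sample number (horizontal axis) for the 6 genes, with WT as grey circles, toc132 as red squares, group means as dashed lines and the sets of numbers parted by vertical lines. For 5 genes WT 3 to 6 lie below all toc132 samples while WT 1 and 2 lie beside them, and for AT2G37510 all WT samples lie above all toc132 samples.

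Taken by set of numbers, the differences of the 5 higher genes after quantile normalisation were small for numbers 1 and 2. The log2 difference there was 0.65 for AT5G39980, 0.43 for AT5G15280, 0.38 for AT2G30100, 0.30 for AT3G56330 and -0.02 for AT5G55580. None of the 6 genes reached 2-fold in that set, where 5.28% of 3105 probes were at least 2-fold higher and 3.57% lower. The differences in that set depend on the normalisation. The log2 medians before it were -1.34 in WT 1 and 2, and -0.63 and -0.62 in toc132 1 and 2. Deposited values gave a narrower gap for AT5G39980 and a wider one for each of the other higher genes. For AT3G56330 they were 0.523 and 0.614 in WT 1 and 2 and 1.02 and 1.06 in toc132 1 and 2. In the samples numbered 3 and 4 all 5 were at least 2-fold higher in toc132, as were 14.1% of probes. The folds there were 10.01 for AT2G30100, 8.97 for AT3G56330, 5.40 for AT5G55580, 3.83 for AT5G39980 and 2.94 for AT5G15280.

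In the samples numbered 5 and 6 the same 5 genes were again at least 2-fold higher, beside 20.1% of probes. AT5G15280 was at 13.3-fold of WT there, AT2G30100 at 10.8-fold, AT5G55580 at 6.49-fold, AT3G56330 at 5.90-fold and AT5G39980 at 4.10-fold. A difference of at least 2-fold upwards in both of these sets was seen for 8.89% of probes. The order of the 5 genes thus differed between the sets, with AT5G15280 last in numbers 3 and 4 and first in numbers 5 and 6. Its first place rests on dim WT intensities of 0.097 and 0.0578. The folds of AT2G30100 and AT3G56330 also rest on dim values in WT 3 to 6, of 0.0604 to 0.197 and 0.0492 to 0.171. With the offset of 0.1 before log2 their group differences were 1.9 and 1.43 (log2), against 2.38 and 2.01 without it. AT2G37510 was lower in toc132 in all 3 sets, with log2 differences of -0.47, -0.71 and -2.05, and 18.6% of probes were lower in all 3. It passed 2-fold downwards for numbers 5 and 6 alone, at 0.242-fold of WT. In that set 20.9% of probes were at least 2-fold lower, whatever they did in the other sets.

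**Figure D2:**
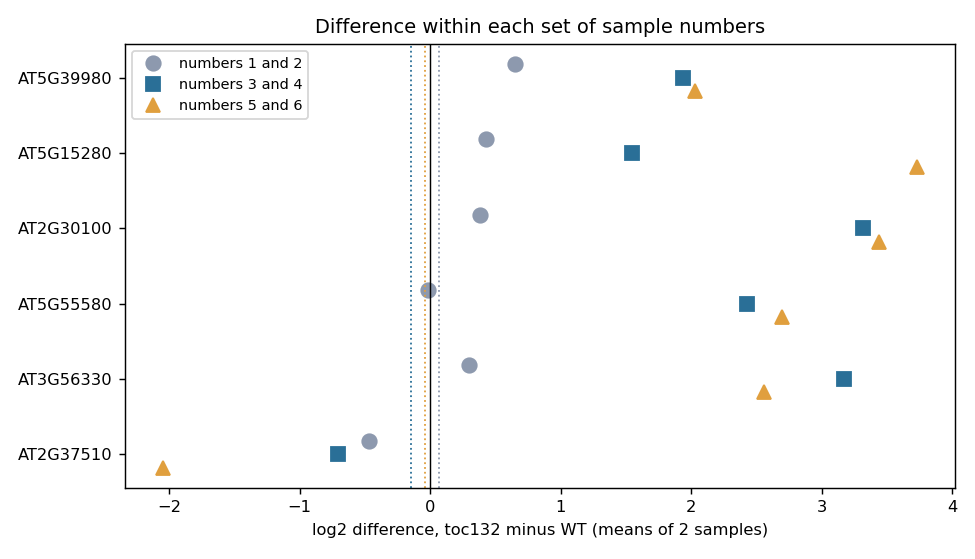
Log2 difference, toc132 minus WT (horizontal axis), between means of 2 samples for numbers 1 and 2 (circles), 3 and 4 (squares) and 5 and 6 (triangles), for each of the 6 genes, with the median of all probes in each set as a dotted line of the same colour. The circles lie between -0.47 and 0.65, and the squares and triangles of the 5 higher genes between 1.55 and 3.73.

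The unevenness between sets lay on the WT side for the 5 higher genes. Their set means spanned 2.22 (log2) in WT for AT5G39980, 4.13 for AT5G15280, 3.78 for AT2G30100, 2.48 for AT5G55580 and 3.21 for AT3G56330. In toc132 the same genes spanned 0.83, 0.83, 0.72, 0.61 and 0.38. The range was larger in WT than in toc132 for 5 of the 6 genes, and for 72.9% of all 3105 probes, so a wider range in WT was the common case on this array. The median range over all probes was 1.28 in WT and 0.77 in toc132. For the 6 genes the medians were 2.84 and 0.77.

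Between WT samples alone, all 5 genes were at least 2-fold lower in WT 3 and 4 than in WT 1 and 2, which held for 16.0% of probes. All 5 were also at least 2-fold lower in WT 5 and 6 than in WT 1 and 2, which held for 24.2% of probes. AT2G37510 spanned 0.87 in WT, where it was 1.52 times as high in samples 3 and 4 and 1.83 times as high in samples 5 and 6 as in samples 1 and 2. It spanned 1.07 in toc132, and thus varied about as much in both groups. No gene of the 6 was 2-fold higher or lower in toc132 3 and 4 or toc132 5 and 6 than in toc132 1 and 2. Over all probes 7.57% were at least 2-fold lower in toc132 3 and 4 and 11.9% in toc132 5 and 6. None among 6 genes is near these shares, and the share of probes at least 2-fold higher was not counted.

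**Figure D3:**
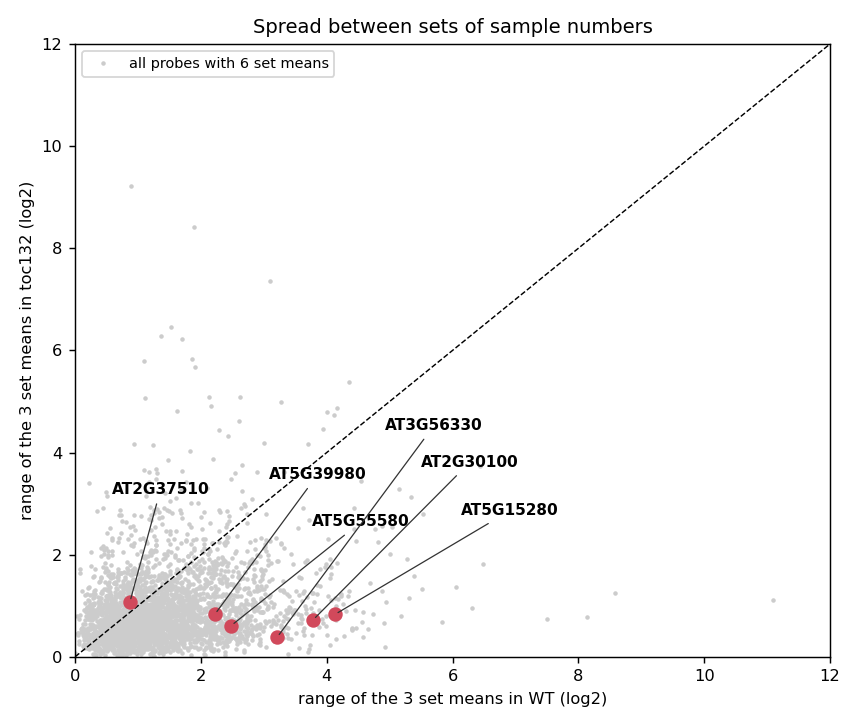
Range of the 3 set means in WT (horizontal axis, log2) against that in toc132 (vertical axis, log2), with each probe as a grey point, the 6 genes as red points and equality as a dashed line. The 5 higher genes lie at 2.22 to 4.13 in WT and below 1 in toc132, and AT2G37510 lies at 0.87 and 1.07.

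Over the 12 samples the 5 higher genes went up and down together. Pearson's r of log2 intensity was 0.762 to 0.943 for their 10 pairs, with a median of 0.890, and was at least 0.762 for 6.22% of all pairs of complete probes. The 5 pairs with AT2G37510 had r between -0.884 and -0.705, and 8.44% of all pairs were at or below that upper value. The median over all 15 pairs was 0.844. The 12 samples form sets of close samples and share the group difference by which genes had been picked, so r is a description here and is given without a p. Over the 6 means of sets, the 10 pairs had r of 0.769 to 0.986 and the 5 pairs with AT2G37510 had r of -0.888 to -0.707.

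Within the 6 WT samples these signs were the same. The 10 pairs had r of 0.632 to 0.959, the highest being AT2G30100 with AT5G55580. AT2G37510 had r = -0.996 with AT5G39980 in WT, and its other 4 values were between -0.914 and -0.831. Shares of all pairs of probes with such values were not worked out within a group. Within the 6 toc132 samples the arrangement was different. AT5G55580 had r of -0.937 with AT5G39980, -0.905 with AT5G15280, -0.611 with AT2G30100 and -0.532 with AT3G56330. The other 6 pairs of the 5 genes stayed positive, between 0.698 and 0.970. AT2G37510 had a positive r in toc132 with 4 genes, from 0.229 for AT3G56330 to 0.807 for AT5G39980, and r = -0.938 with AT5G55580. Set means of the 5 higher genes spanned less in toc132, but those of AT2G37510 spanned 1.07 (log2) there against 0.87 in WT. Each within-group r rests on 3 sets of 2 close samples, so the difference between the groups was not tested.

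**Figure D4:**
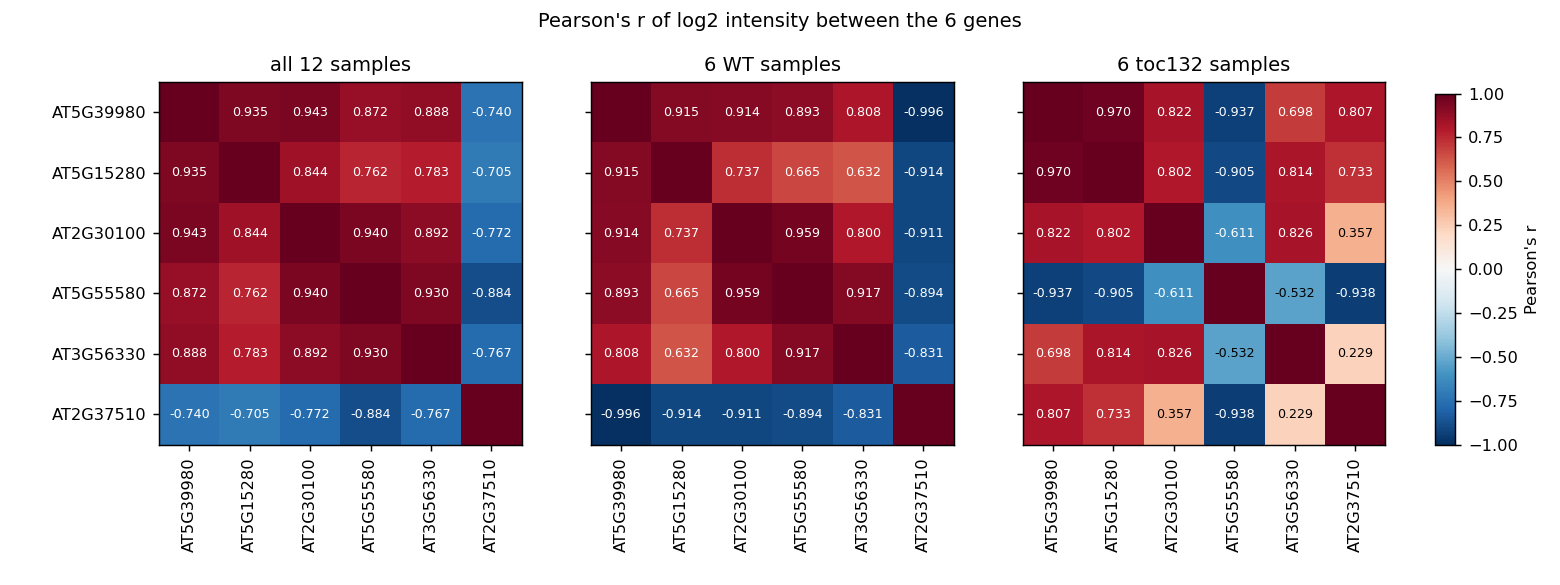
Pearson's r of log2 intensity between the 6 genes over all 12 samples, over the 6 WT samples and over the 6 toc132 samples, with red for positive and blue for negative r. The row of AT5G55580 is positive against the other 4 higher genes in WT and negative against them in toc132.

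The genes nearest in pattern were looked for among 581 other single-gene probes with a value in all 12 samples, by r over the 12 samples. A likeness of their differences by set to those of the member was therefore likely beforehand. Nearest to AT5G39980 were AT5G05400, AT3G06870 and AT1G63610, with r of 0.974, 0.967 and 0.965. Nearest to AT5G15280 were AT5G52810 (0.992), AT1G32520 (0.980) and AT5G58330 (0.961). Like AT5G15280, these 3 had larger log2 differences for numbers 5 and 6 (2.27, 5.21 and 2.89) than for 3 and 4 (0.86, 1.39 and 0.36). AT2G30100 was nearest to AT1G63610 (0.980), AT3G52960 (0.979) and the calmodulin-like gene CML41 (0.977).

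AT5G55580 was nearest to AT5G46560, AT3G47650 and AT1G35510, with r of 0.985, 0.971 and 0.966. Within toc132 the r of these 3 with AT5G55580 was 0.996, 0.280 and -0.554, beside 0.97, 0.98 and 0.99 in WT. AT3G56330 was nearest to AT4G14330 (0.994), SPL (SPOROCYTELESS, 0.974) and AT1G77730 (0.972). AT4G14330 had log2 differences of 0.26, 4.21 and 3.21 in the 3 sets, beside 0.30, 3.17 and 2.56 for AT3G56330. AT2G37510 was nearest to probe 2727 of AT2G25870 (0.942), to the glutamate receptor-like gene GLR2.7 (0.899) and to AT2G43180 (0.895). A second probe of AT2G25870 gave r = -0.485 with AT2G37510 and a log2 difference of 0.63 against -0.99, so the probes of that gene disagreed. The members were not each other's nearest genes: the closest was AT2G30100, which ranked at place 11 of 586 for AT5G39980.

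Other organelle gene expression factors were sought to set beside the 6. A search for 9 classes of such factors by key words in the RefSeq gene names matched 0 genes besides mTERF9, since that table holds symbols and few descriptions. In its place, 6 genes with a symbol were picked by name: the PPR genes OTP70, OTP85 and CRR21, the last needed for editing of a plastid transcript, PAC (PALE CRESS), needed for plastid RNA maturation, ATAB2, which acts in translation of photosystem I subunits, and OSB1, an organellar protein that binds single-stranded DNA. Of these 6, 0 passed limma's test at an adjusted p of 0.05, where 0 of 3190 probes (0.0%) passed. Before adjustment, 807 probes (25.3%) had a limma p under 0.05, and 1 of them was from these 6 genes, CRR21. The replicate block in limma raised the number of probes passing after adjustment to 21 (0.658%), with still 0 of the 6 among them. That fit treats neighbouring numbers as independent samples, and limma gave 0 probes with sets as a random block (257 before adjustment) and 0 with sets averaged (141 before adjustment).

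CRR21 (AT5G55740) had the largest difference of these 6 genes. Its intensity was 1.03, 1.19, 0.787, 0.831, 0.506 and 0.636 in WT samples 1 to 6, and 2.13, 2.06, 1.14, 1.21, 0.987 and 0.953 in toc132. Each toc132 sample was above the WT sample of its number, and the groups overlapped through WT 1 and 2. The log2 difference was 0.82 ± 0.30 (SE), or 1.77-fold, with a limma adjusted p of 0.133 and of 0.0507 with the replicate block. Unlike the 5 genes above, it had a similar difference in all sets, of 0.71, 1.04 and 0.72, and the contrast with those genes was not tested. Its limma adjusted p was 0.0452 without WT 2, a fit in which 423 of 3155 probes passed. With sets as a random block it was 0.580, and with sets averaged 0.688.

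PAC (AT2G48120) stood at a log2 difference of -0.62 ± 0.40 (SE), or 0.650-fold, and limma gave an adjusted p of 0.322. Its intensity was 0.406 and 0.212 in WT 1 and 2, 1.06 and 0.820 in WT 3 and 4, and 1.51 and 1.39 in WT 5 and 6. In toc132 its deposited values stayed between 0.432 and 0.606. After normalisation the set means spanned 1.94 (log2) in WT and 1.02 in toc132. The toc132 set means were then -1.68, -0.66 and -0.94, a wider span than in the deposited values. With sets as a random block the limma adjusted p of PAC was 0.776, and with sets averaged 0.726. OTP70 (AT4G25270) was the steadiest in toc132, at log2 intensities of 0.41 ± 0.04 (SD, n = 6), against 0.14 ± 0.58 (SD, n = 6) in WT. Its log2 difference was 0.27 ± 0.26 (SE) with a limma adjusted p of 0.496, and the difference was 0.17 to 0.43 with each sample left out and 0.017 without numbers 5 and 6 of both groups.

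OTP85 (AT2G02980) and OSB1 (AT1G47720) differed by 0.10 ± 0.23 and 0.11 ± 0.17 (log2, SE), with limma adjusted p of 0.800 and 0.697. ATAB2 (AT3G08010) was dim, with mean log2 intensities of -3.08 in WT and -3.45 in toc132, and the close samples toc132 5 and 6 differed by 2.70. Its log2 difference was -0.37 ± 0.54 (SE), with a limma adjusted p of 0.677. Of the 6 genes, 4 were higher and 2 lower in toc132, and their median log2 difference was 0.10, beside -0.06 over all probes.

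**Figure D5:**
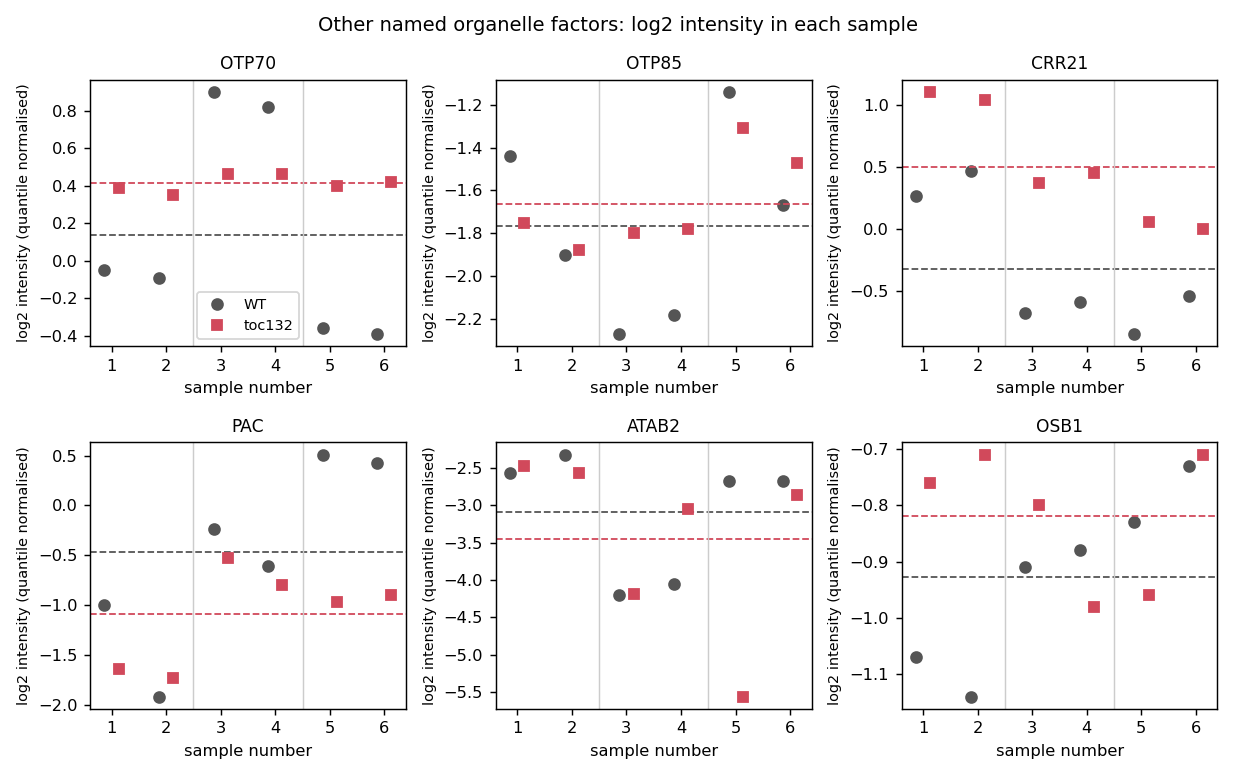
Log2 intensity after quantile normalisation (vertical axis) against sample number (horizontal axis) for OTP70, OTP85, CRR21, PAC, ATAB2 and OSB1, drawn as for the 6 genes above, with vertical scales that differ between panels. CRR21 is higher in toc132 for all 6 numbers, and the groups overlap for each of these genes.

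A pair of further probes list a member together with other genes and cannot be assigned to it. Probe 4364, which lists AT5G55580 and AT1G78930, went the other way from probe 800 of AT5G55580. Its intensity was 0.286, 0.305, 0.634, 0.544, 0.588 and 0.537 in WT samples 1 to 6, and 0.571, 0.524, 0.192, 0.197, 0.228 and 0.328 in toc132. The order was reversed between the sets: toc132 lay above WT in the deposited values of numbers 1 and 2 and below it in the other 4. Its log2 difference was -0.69 ± 0.24 (SE), with a limma adjusted p of 0.132, beside 1.70 for probe 800. Without numbers 1 and 2 of both groups its log2 difference was -1.10, with a limma adjusted p of 0.00913. In that fit 831 of 3105 probes passed. The set left out was the one in which the probe ran the other way, so that p is no separate support. With sets averaged its limma adjusted p was 0.693. Which of the probes reports the mTERF9 transcript was not tested. Probe 439, which lists AT2G37510 with AT1G73530 and AT5G54580, was at 0 in all 12 samples.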

How the data were processed

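The deposited table gives 1 intensity per probe and sample, which the authors scaled to a range of 0 to 100. The array type, any background correction and how samples were scaled are not given in the sources used here. What an exact 0 means is therefore unknown. Groups and numbers came from the sample titles. Zeros were treated as missing and the rest put on the log2 scale. The log2 medians of the samples differed by 0.72, over a limit of 0.1, so they were quantile normalised, which also removes differences in width between samples. Probes with fewer than 4 values in a group were not tested. The 6 members had values in all samples.

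The groups were compared by lmFit and eBayes of limma 3.58.1 under R 4.3.3 (2-sided, Benjamini-Hochberg over 3190 probes, threshold 0.05). A check on simulated data drew the samples independently, so it does not show how the fit behaves with sets of close samples. Set means are means of 2 log2 values. Figures were drawn with matplotlib 3.10.9. Probes were named through the platform annotation: 692 have 1 gene, 870 several and 1877 none, and 690 of the 692 matched the RefSeq table of TAIR10.1. No build is named for the array, so no coordinates are given.

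The members, sets and lists were chosen with earlier results of these data known, and the 6 factors by name after the key words had failed. Named were all members, these factors and the 3 nearest genes of each member. Same-numbered WT and toc132 samples deviated together from their group means (r of 0.326, 0.301, 0.201, 0.153, 0.439 and 0.393 over 2907 probes, each above 0.1), which was taken as pairing by number. Values of r for samples with different numbers were not set beside these. Samples of a set are close, so pairing by number and by set cannot be told apart. The labels do not say what the numbers mark. The design had no block, and the blocked fit is an alternative. Other alternatives were scalings, an offset of 0.1 before log2, filters, variance models, sets as a random block or averaged, and left-out samples.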

Additional observations from a re-analysis of the deposited data

How the results depend on the processing

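The 6 members kept their direction in all 150 values under 25 alternatives, and 149 lay within 1 SD (pooled within groups) of the value reported. The exception was AT2G37510, at -0.59 without the numbers 5 and 6 of both groups. The members had been picked for their differences, so this was likely beforehand. Blocks, averaged sets and probe filters cannot move the difference of a member with a value in all samples. The SD, 0.45 for AT2G37510 and 1.41 for AT2G30100, takes in the spread between sets. A shift of AT2G30100 from 2.38 to 3.6 without WT 1 and 2 therefore counts as within it. The median of the 6 log2 differences, 1.80, was 1.49 to 2.16 with each sample left out in turn. It was 1.44 with the offset of 0.1 before log2, 1.25 without numbers 5 and 6 of both groups and 2.65 without WT 1 and 2. The median r over the 15 pairs of members, 0.844, was 0.78 to 0.96 under the alternatives that apply to it, and all 378 values of r with the nearest genes stayed positive (0.762 to 0.999). The nearest genes had been picked by r over the same samples, so a positive r was likely beforehand. The number of probes passing in limma, 0, became 21 with the replicate block, 1133 without WT 1 and 2, 831 without numbers 1 and 2 of both groups, and 1 each with the offset, without the dimmest 25% of probes and with a trended robust eBayes. It stayed 0 with sets averaged (141 probes before adjustment, against 807) and with sets as a random block (257). For the 5 higher members WT 1 and 2 lay beside the toc132 samples. The sets were chosen with earlier results of these data known, so the higher counts without WT 1 and 2 are no separate support. Why the number rises without them was not tested. The number was 393 without WT 1, 423 without WT 2, and 0 to 423 over all samples left out in turn. Of the 6 named factors, 0 passed, and 0 to 1 with each sample left out (CRR21 without WT 2, where 423 of 3155 probes passed). Without WT 1 and 2 the number of factors passing was 2 (CRR21, limma adjusted p = 0.0061, and PAC, 0.0189), and probe 4364 had 0.0175 there. In that fit 1133 of 3173 probes passed. Without numbers 1 and 2 of both groups it was 1 (CRR21), where 831 of 3105 probes passed. With so many probes passing, these calls are no separate support for the factors. The replicate block changed no call among them. Directions turned for OTP85 (-0.0038 without WT 3, the lowest of a range up to 0.22 with single samples left out, and -0.071 without numbers 3 and 4), ATAB2 (0.053 without toc132 5, the highest of a range from -0.59, and 0.21 without numbers 5 and 6) and OSB1 (-0.027 without numbers 1 and 2); the causes were not tested. Cyclic loess was chosen after seeing the data. The table holds no background signal, so its limits were not assessed.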
